A study of Ictidomys tridecemlineatus with 15 samples.

Results

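The comparison of torpor with the active state in the supraoptic nucleus of the thirteen-lined ground squirrel (Ictidomys tridecemlineatus) covers 10 of the 15 libraries of the study, 5 per state, and 15501 of the table's 16993 genes, those that stood at 1 or more in 5 or more of the 15 libraries. Active animals were outside hibernation, and torpid animals were hibernating and in the cold, inactive phase. The remaining 5 libraries came from interbout arousal (IBA), the short warm interval between bouts of torpor, and served here for the shared estimate of spread and for values set side by side. The nuclei were cut out by hand from thick coronal brain slices, and libraries were made from their RNA with an mRNA kit. The study's design text calls the 5 libraries of a state biological replicates. The labels give no sex, age, time of day or body temperature for any animal, so differences in these between the states cannot be told apart from the state itself.

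Hibernating ground squirrels lower their metabolic rate and body temperature for days at a time, fuel themselves largely from stored fat, and neither eat nor drink. The supraoptic nucleus holds the large neurosecretory neurons that make the hormones of the posterior pituitary and that respond to blood osmolality, together with astrocytes, oligodendrocytes and a dense bed of capillaries. In the cold most enzyme reactions slow, including transcription, translation and protein breakdown, so the level of a transcript in torpor depends on both its synthesis and its decay. Levels are given as normalised CPM (counts adjusted for the size of each library and for 1 additional scaling factor), as mean ± SD with n = 5 per state. Differences are torpor minus active on the log2(value + 1) scale, which understates the change of low genes, with their standard error. A gene is said to have risen or fallen where limma's adjusted p, over all 15501 genes, was under 0.05.

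The recovered reads of an active library numbered between 15844561 and 21216931, those of a torpor library between 21570371 and 26113341, so that torpor was sequenced more deeply in every library. On the first principal component, active library 4 lay apart at −51.1 and the other active libraries between −20.6 and −16.2. Torpor libraries lay between −2.28 and 39.3, with torpor libraries 4 and 5 highest. Torpor library 2 lay apart on the second component, at −47.5. The 12 oligodendrocyte markers moved with the state: their mean log2 level ran from 6.42 to 7.21 in active and from 7.08 to 8.44 in torpor, 9 rose (5 without torpor library 4) and none fell, and torpor libraries 4 and 5 were the highest. In dissected tissue fewer cells of a type and less RNA per cell cannot be told apart. Because those markers and those libraries move with the state, the counts of the lists described are also given without torpor libraries 4 and 5 and with the marker level as a covariate. The part of either in any single gene's difference was not tested.

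Of the genes tested, 3018 (19.5%) passed, 1508 of them higher in torpor (9.73%) and 1510 lower (9.74%). Most differences were modest. The median rise among called genes was 0.61 on the log2 scale, or 1.52-fold, and the median fall was −0.55, or 1.46-fold. A difference of at least 2-fold was reached by 195 genes that rose and 117 that fell, and one of at least 4-fold by 17 and 3. Torpor and active libraries did not overlap for 838 genes higher in torpor (5.41%) and 1052 lower (6.79%). Rises outnumbered falls among the most abundant transcripts: when genes were split into 4 equal groups by their mean level over all libraries, 469 rose and 288 fell in the highest group, whereas 364 rose and 462 fell in the second lowest. Scaling by library size alone shifted the differences of single genes by a median of −0.078 and changed the split of calls to 1053 higher and 2273 lower. Without torpor libraries 4 and 5 the calls numbered 2195 (14.2%), or 1099 higher (7.09%) and 1096 lower (7.07%). With the oligodendrocyte marker level as a covariate 757 genes (4.88%) passed, or 381 higher (2.46%) and 376 lower (2.43%), of which 617 were among the 3018.

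Of the 145 genes named that rose or fell, the covariate ended the calls of 83. Those that still passed with it on the higher side were Klk6, Rab26, Rlbp1, Exosc4, Pop7, Stmn4, Clpp, Coro1b, Wdr1, Ndufa10, Slc16a1, Hadh, Sqle, Fth1, Bnip3, Hdac3, Setd6, Snrpb, Psmd2, Psmd6, Psmb1, Eif3f, Farsa, Mrps25, Mrpl11, Calb1, Gria4 and Gabra5. On the lower side they were Nabp1, Lpar6, Dnase1l2, Zbtb34, Tnfsf10, Znf142, Slc14a1, Ccdc168, Pdk4, Clk1, Slc19a3, Clk4, Mettl6, Btbd7, Kiaa0408, Slc40a1, Ireb2, Nfe2l2, Insr, Foxo3, Fkbp5, Tsc22d3, Znf366, Znf691, Kmt2d, Crebbp, Smg1, Kctd12, Kcnj2, Atp2a2, Sik2, Tgfb3, Pfkfb3 and Hk2. Every other call named below was lost with the covariate. Leaving out torpor libraries 4 and 5 ended 16 named calls, those of Akap8l, Tomm40, Pdk1, Pfkl, Creb1, Th, Fa2h, Adamts4, Mettl14, Grin1, Ep300, Srxn1, Lipe, Eif5a, Ezh2 and Hey1.

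A pattern over single libraries was counted because it had been seen in some of the largest rises, so its share among rises was in part chosen. Among the genes that rose, 298 (19.8%) had every value of IBA libraries 1, 4 and 5 above those of IBA libraries 2 and 3 and their lowest torpor value in library 1, against 14 (0.927%) of those that fell and 636 (4.10%) of all genes tested. The inverse pattern was held by 67 (4.44%) of the genes that fell, 20 (1.33%) of those that rose and 393 (2.54%) of all. Of the 72 genes named below that rose, 13 follow it: Itm2c, Rab26, Akap8l, Tomm40, Scamp4, Clpp, Coro1b, Bnip3, Eif3f, Mrps25, Mrpl12, Mrpl11 and Hes1. What those libraries share was not tested.

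Genes were ranked by size among those with a symbol that passed, had a mean log2 level of at least 2 over the 15 libraries and did not overlap between the states. The falls and rises at ranks 11 to 25 of that order are described here. Slc19a3, the thiamine transporter that supplies the cofactor of pyruvate dehydrogenase, stood at 14.01, 13.6, 10.01, 13.9 and 12.8 in active libraries 1 to 5 and at 5.38, 4.22, 4.25, 4.76 and 5.29 in torpor libraries 1 to 5. Every torpor library lay below every active one, and the gene fell by 1.26 ± 0.14 on the log2 scale (adjusted p = 3.51e-05). Pdk4, a kinase that inhibits pyruvate dehydrogenase, stood at 29.97, 29.5, 25.7, 24.3 and 32.3 in active and at 9.22, 9.97, 10.1, 12.01 and 13.8 in torpor, and fell by 1.29 ± 0.13 (adjusted p = 1.22e-05). Both were low in torpor alone among the 3 states: IBA stood at 17.4 for Slc19a3 and at 25.1 for Pdk4, and torpor lay below IBA by 1.66 and 1.13 (adjusted p = 4.40e-06 and 1.11e-04).

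Slc14a1, the urea transporter also carried by astrocytes, stood between 274 and 345 in active and between 106 and 129.9 in torpor, with no overlap, and fell by 1.32 ± 0.16 (adjusted p = 7.55e-05). Its level in IBA was 148, and its torpor minus IBA difference was −0.26 (adjusted p = 0.376). Nabp1, a single-strand DNA-binding protein of DNA repair, fell by 1.52 ± 0.19 to 11.04 ± 1.43 from 34.1 ± 7.18, and Lpar6, a receptor for lysophosphatidic acid, fell by 1.52 ± 0.21 to 14.6 ± 4.21 from 45.1 ± 18.8 (adjusted p = 1.30e-04 and 3.02e-04). Both stood higher in IBA, at 29.7 and 34.4. Also at ranks 11 to 25 of the falls in that order were Dnase1l2, Tnfsf10 (the death ligand TRAIL), Znf142, Ccdc168, Abi3bp (a matrix protein), Plau (urokinase), Clk1 (a kinase of splicing factors), Ston1 (an endocytic adaptor), Zbtb34 and Aplnr. Their differences ran from −1.54 ± 0.50 for Aplnr, the apelin receptor, to −1.27 ± 0.23 for Ston1. The fall of Aplnr was the weakest call of these, with an adjusted p of 0.0453, and did not survive the removal of torpor library 1, 2 or 5 or of any single active library, 8 in all (adjusted p 0.0556 to 0.0984), nor the use of edgeR or DESeq2.

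Of the 15 rises at ranks 11 to 25 in that order, 4 were genes of oligodendrocytes or myelin. Olig1, a transcription factor of that lineage, rose by 1.66 ± 0.32 to 103 ± 59.1 from 27.98 ± 3.57. Pllp and Opalin, membrane proteins of myelin, rose by 1.61 ± 0.28 and 1.56 ± 0.29, and Klk6, a secreted protease made by oligodendrocytes, rose by 1.61 ± 0.23 (adjusted p = 0.00160, 0.00244 and 3.99e-04). With the marker level as a covariate Olig1, Pllp and Opalin no longer passed and Klk6 did. Opalin is itself a member of the marker list whose mean is that covariate, so its lost call was in part built in.

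The others of these 15 belonged to other functions. Piwil4, a member of the family of proteins that bind small RNAs in the germ line, stood between 3.797 and 10.1 in active and between 14.7 and 29.1 in torpor (rise 1.62 ± 0.26, adjusted p = 7.90e-04). Rab26, a GTPase of secretory and synaptic vesicles, stood between 15.7 and 35.02 in active and between 52.97 and 87.02 in torpor (rise 1.60 ± 0.21, adjusted p = 2.07e-04). Hpca, the neuronal calcium sensor hippocalcin, rose by 1.49 ± 0.23 to 47.3 ± 12.4 from 16.4 ± 5.93 (adjusted p = 5.56e-04). Itm2c, Fam98c, Vwa1, Akap8l, CUNH1orf198, Ldb3, Tomm40 and Scamp4 rose by between 1.44 ± 0.32 and 1.62 ± 0.33. The calls of Akap8l and Tomm40 ended without torpor libraries 4 and 5.

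Ranked by p instead of size, other genes came forward. Rlbp1, the retinaldehyde-binding protein known from glia of the retina, stood at 57.1, 43.9, 37.9, 47.7 and 42.6 in active libraries 1 to 5 and at 136, 104, 105, 133 and 98.7 in torpor libraries 1 to 5. The lowest torpor library was well above the highest active one, and the gene rose by 1.31 ± 0.13 (adjusted p = 1.23e-05). Exosc4, a core subunit of the RNA exosome, stood at 40.9, 47.7, 50.2, 42.5 and 49.9 in active and at 80.1, 105, 93.03, 92.00 and 82.7 in torpor, again without overlap (rise 0.95 ± 0.10, adjusted p = 2.74e-05). Pop7, a protein of ribonuclease P, Stmn4, a stathmin that binds tubulin, Clpp, the protease of the mitochondrial matrix, Coro1b and Wdr1, which act in the turnover of actin filaments, and Ndufa10 of complex I rose by between 0.72 ± 0.09 and 1.29 ± 0.16. On the other side Mettl6, a methyltransferase of tRNA, fell by 1.00 ± 0.10 to 12.6 ± 1.03 from 26.1 ± 1.76 (adjusted p = 1.23e-05). Btbd7 fell by 1.10 ± 0.12, Kiaa0408 by 0.91 ± 0.10 and the splicing factor kinases Clk4 and Clk1 by 1.14 ± 0.10 and 1.27 ± 0.14 (adjusted p = 2.01e-05, 2.46e-05, 3.27e-06 and 2.46e-05).

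**Figure D1:**
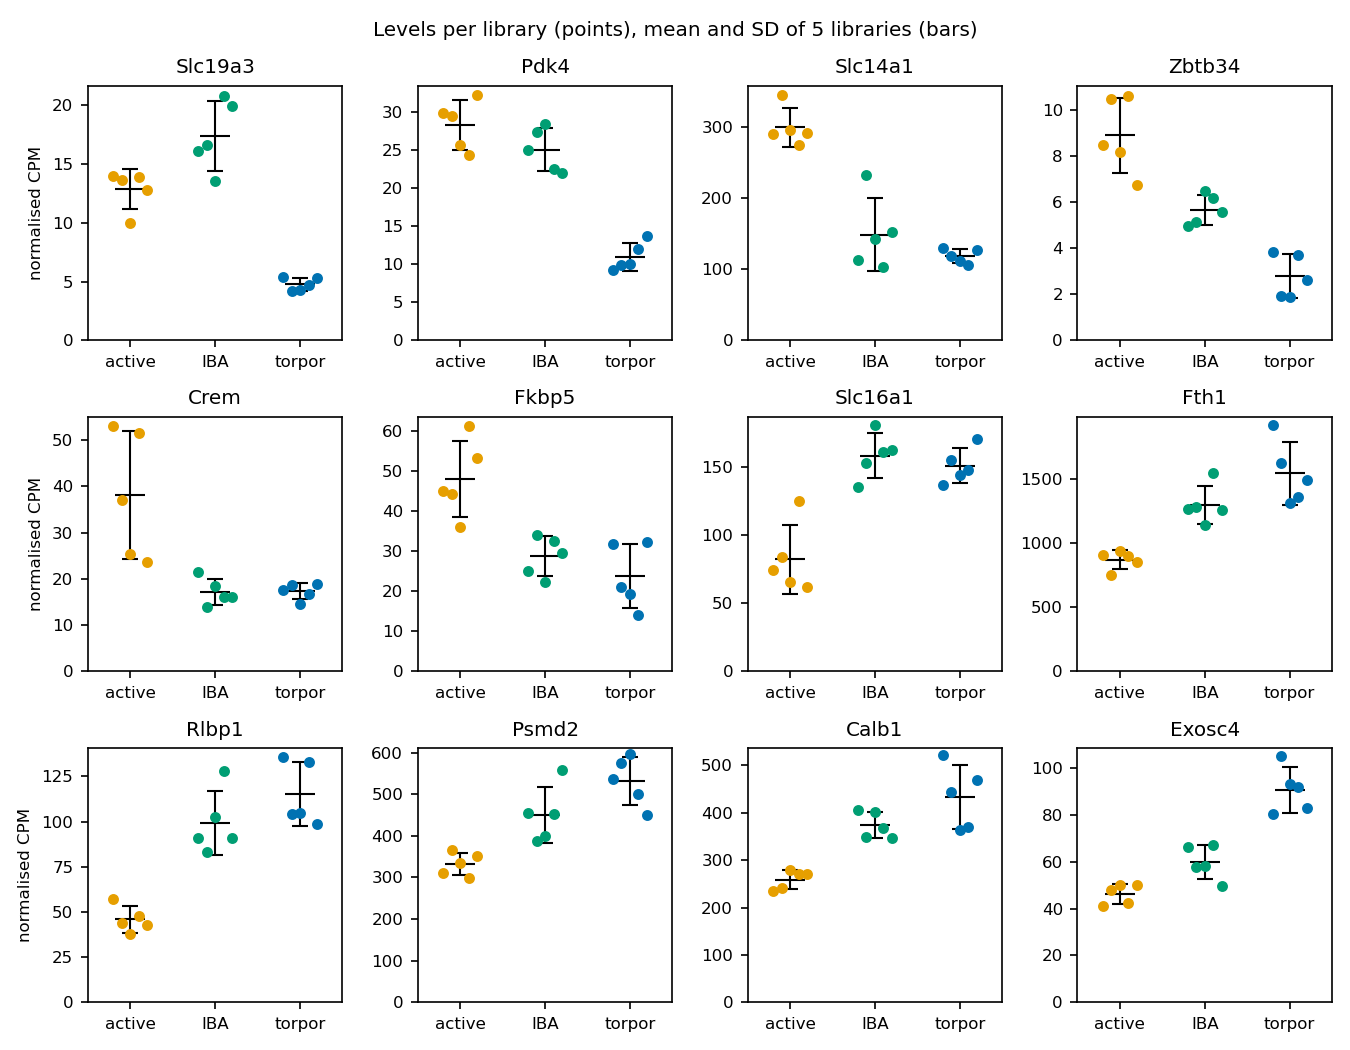
Levels of 12 genes in normalised CPM (vertical axes, linear from 0) in active, IBA and torpor libraries; each point is 1 library, and bars show the mean and SD of 5 libraries. For all 12 genes the torpor points lie entirely above or entirely below the active points, while IBA lies beside the active state for Slc19a3 and Pdk4 and beside torpor for Slc14a1, Crem and Slc16a1.

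Among transcription factors and chromatin regulators, several lists gave more falls than rises. Zinc finger genes of the ZBTB family, which carry a BTB domain and act largely as repressors, gave 15 falls and no rise among 38 tested (39.5% lower, against 9.74% of all genes), with a median difference of −0.34 against 0.01 for all genes. Zbtb34 stood at 8.497, 10.5, 8.205, 10.6 and 6.76 in active libraries 1 to 5 and at 3.83, 1.92, 1.88, 3.72 and 2.62 in torpor, and fell by 1.41 ± 0.18 (adjusted p = 1.23e-04). Every torpor library lay below every active one, and torpor libraries 2 and 3 were the lowest. Zbtb41 fell by 0.68 ± 0.12 and Zbtb38, which binds methylated DNA, by 0.51 ± 0.09 (adjusted p = 0.00100 and 0.00134). Zbtb16 stood at 55.8 ± 4.601 in torpor and 76.1 ± 23.6 in active and did not pass (adjusted p = 0.156). Without torpor libraries 4 and 5 the family gave 13 falls, and with the marker covariate 4 (10.5%, against 2.43% of all genes). Its mean log2 level was 3.83 to 4.01 in the active state and 3.45 to 3.81 in torpor, which do not overlap: active library 4 was the lowest of its state and torpor library 5 the highest of its own.

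The larger set of genes named as zinc finger proteins, most of them DNA-binding and many of them repressors, gave 60 falls and 19 rises among 260 tested. These were 23.1% and 7.31%, against 9.74% and 9.73% of all genes, and the median was −0.18. Znf366, a corepressor of nuclear receptors, fell by 0.99 ± 0.15 to 7.65 ± 1.28 from 16.3 ± 3.45, and Znf691 fell by 0.89 ± 0.11 to 19.8 ± 1.47 from 37.6 ± 3.699 (adjusted p = 4.03e-04 and 6.90e-05). Znf331 fell by 0.89 ± 0.14 (adjusted p = 6.52e-04), and Znf664 went the other way, rising by 0.73 ± 0.15 (adjusted p = 0.00346). The falls numbered 40 (15.4%, against 7.07% of all genes) without torpor libraries 4 and 5. They numbered 14 (5.38%, against 2.43%) with the marker covariate and 78 with library-size scaling. The rises numbered 12 without torpor library 4 or without torpor library 5. Members of this family resemble one another in sequence, so reads may be split between copies and single values are uncertain.

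Enzymes that write, remove and read chromatin marks moved in the same direction in part. Of 15 histone lysine demethylases 5 fell (33.3%, against 9.74% of all genes) and none rose, with a median of −0.26. Kdm7a fell by 0.82 ± 0.16 and Kdm5a by 0.58 ± 0.12 (adjusted p = 0.00246 and 0.00319). The 5 falls were also 5 or 6 when any 1 library was left out and 6 without torpor libraries 4 and 5, and none passed with the marker covariate. Of 29 histone lysine methyltransferases 8 fell (27.6%) and 3 rose (10.3%, near the 9.73% of all genes). Kmt2d and Kmt2c, which methylate histone H3 at enhancers, fell by 0.55 ± 0.11 and 0.50 ± 0.10 (adjusted p = 0.00246 and 0.00230), whereas Setd6 rose by 0.67 ± 0.13 and Ezh2, of the Polycomb complex, by 0.55 ± 0.18 at a low level of 3.28 ± 0.881 from 1.905 ± 0.412 (adjusted p = 0.00239 and 0.0408). The call of Ezh2 was lost on removal of torpor library 1 or 5 or active library 1, 2, 3 or 4 (adjusted p 0.0535 to 0.0960). The 8 falls became 4 without active library 1 and 5 without torpor library 3, and the 3 rises became 1 without torpor library 5 or active library 4. The list gave 7 falls and 1 rise without torpor libraries 4 and 5, and 5 falls and 1 rise with the marker covariate.

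Of 11 genes of DNA methylation 5 fell (45.5%, against 9.74% of all genes) and 1 rose (9.09%, near 9.73%). Dnmt1, the maintenance methyltransferase, fell by 0.46 ± 0.10 (adjusted p = 0.00433). Tet2 and Tet3, which oxidise methylcytosine, fell by 0.39 ± 0.10 and 0.52 ± 0.15 (adjusted p = 0.0107 and 0.0217). The exception was Uhrf1, the partner that brings Dnmt1 to replicated DNA, which rose by 1.00 ± 0.20 to 3.68 ± 1.15 from 1.296 ± 0.0972 (adjusted p = 0.00264). The call of Tet3 ended without active library 2 (0.0579) and in a fit of only the 10 torpor and active libraries. The count of falls was 3 without torpor library 4, active library 1 or active library 2 and also without torpor libraries 4 and 5, and no member passed with the marker covariate.

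Coactivators and deacetylases were divided. Crebbp, the acetyltransferase recruited by CREB, fell by 0.66 ± 0.10 to 38.97 ± 2.87 from 62.4 ± 5.24 (adjusted p = 4.52e-04), and its relative Ep300 fell by 0.49 ± 0.16 (adjusted p = 0.0339), a call that ended without torpor library 2 or 3 or active library 1, 2 or 4 (0.0506 to 0.0820). Among 16 histone deacetylases and sirtuins 2 rose and 2 fell (12.5% each, near the 9.73% and 9.74% of all genes). The falls numbered 1 without torpor library 1, 3, 4 or 5 or active library 1, 2, 4 or 5. Hdac3 rose by 0.70 ± 0.10 and Sirt2, a cytoplasmic deacetylase abundant in myelinating cells, by 1.00 ± 0.16 (adjusted p = 3.96e-04 and 6.20e-04), while Sirt1, a nuclear deacetylase tied to energy state, fell by 0.82 ± 0.18 (adjusted p = 0.00540). Only 1 of the falls in this list was left without torpor libraries 4 and 5, and with the marker covariate Hdac3 passed, and Sirt2 and Sirt1 did not.

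**Figure D2:**
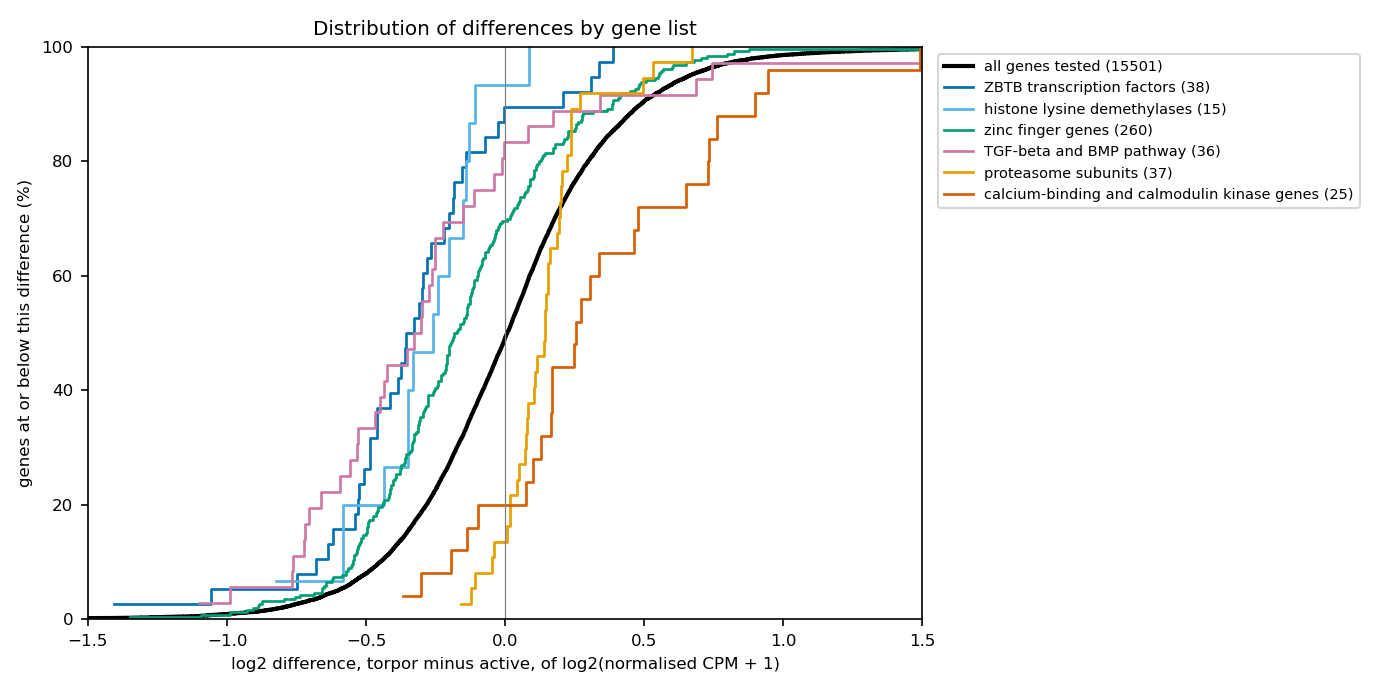
Cumulative share of genes (vertical axis, %) at or below a given torpor minus active difference on the log2(normalised CPM + 1) scale (horizontal axis), for all 15501 genes tested (black) and 6 gene lists with their numbers of tested members. The curves of the ZBTB, demethylase, zinc finger and TGF-beta lists lie left of the black curve over most of their length, and that of the calcium-binding list lies right of it; members beyond ±1.5 are outside the axis.

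Of 46 DEAD and DEAH box helicases, which remodel RNA in splicing, ribosome assembly and translation, 9 fell and none rose. The falls made up 19.6%, against 9.74% of all genes, and the median was −0.07. Ddx3x, a helicase of translation initiation and stress granules, fell by 0.74 ± 0.15 to 539 ± 97.1 from 892 ± 101, and Dhx15, which disassembles spliceosomes, by 0.44 ± 0.10 (adjusted p = 0.00255 and 0.00632). Without torpor libraries 4 and 5, 3 of the 46 fell and 1 rose, and with the marker covariate none fell and 1 rose. Of 17 genes of the m6A mark on mRNA 4 fell (23.5%, against 9.74% of all genes) and none rose. Cbll1, of the complex that writes the mark, fell by 0.61 ± 0.13 (adjusted p = 0.00396). Mettl14, a core subunit of the writer, fell by 0.31 ± 0.11 (adjusted p = 0.0448), a call that ended without any 1 of 9 libraries, the exception being torpor library 3 (0.0578 to 0.104). The 4 falls became 2 without torpor library 4 or active library 1, 4 or 5 and also without torpor libraries 4 and 5 together, and none passed with the marker covariate.

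RNA decay factors moved both ways. The exosome and the CCR4-NOT deadenylase together gave 6 rises (28.6%) and 4 falls (19.0%) among 21, against 9.73% and 9.74% of all genes. But the rises numbered 1 without active library 5, 2 without active library 1 and 3 without active library 4 or torpor library 1, 3, 4 or 5. The falls numbered 2 without torpor library 3 or 4 or active library 1, 2 or 4. Leaving out torpor libraries 4 and 5 gave 3 rises and 2 falls, and the marker covariate 3 rises and no fall. In nonsense-mediated decay the kinase Smg1 fell by 0.75 ± 0.10 to 64.3 ± 5.56 from 108 ± 7.51, and Upf3a rose by 0.79 ± 0.13 to 83.4 ± 17.5 from 47.03 ± 2.75 (adjusted p = 1.43e-04 and 6.87e-04). Snrpb, a protein of the Sm ring of spliceosomal particles, stood between 15.5 and 19.1 in active and between 26.8 and 32.3 in torpor and rose by 0.73 ± 0.11 (adjusted p = 4.08e-04). Of 25 Sm and LSM genes 3 rose (12%, near the 9.73% of all genes) and none fell, with 3 rises without torpor libraries 4 and 5 and 1 with the marker covariate. Nucleoporins gave 3 falls among 20 (15%, against 9.74% of all genes) and no rise, with 1 fall and 1 rise without torpor libraries 4 and 5, and no fall and 1 rise with the covariate.

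Of 24 glycolytic genes 2 rose (8.33%) and 3 fell (12.5%), near the 9.73% and 9.74% of all genes. The counts were 3 and 3 without torpor libraries 4 and 5 and 1 and 2 with the marker covariate. Pfkl, the liver-type phosphofructokinase, rose by 0.68 ± 0.18, and Pfkfb2 and Pfkfb3, which make its activator, fell by 0.43 ± 0.11 and 0.59 ± 0.17 (adjusted p = 0.0142, 0.0107 and 0.0256). Hk2, a mitochondria-bound hexokinase, fell by 0.97 ± 0.28 to 2.69 ± 2.03 from 5.62 ± 1.61 (adjusted p = 0.0228). The call of Pfkl ended without torpor libraries 4 and 5, that of Pfkfb3 without torpor library 3 or active library 1, 2 or 5 (0.0509 to 0.0651), and that of Hk2 without active library 3 (0.0558) and in edgeR. Slc2a1, the glucose transporter of the blood-brain barrier, stood at 498 ± 90.1 in torpor and 399.6 ± 35.9 in active, and Ldha at 744 ± 157 and 579.6 ± 70.8, without passing (adjusted p = 0.0914 and 0.101).

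The kinases of pyruvate dehydrogenase moved apart. While Pdk4 fell, Pdk1 rose by 0.63 ± 0.16 to 24.5 ± 5.62 from 15.2 ± 1.93 and Pdk2 by 0.53 ± 0.11 to 177 ± 20.4 from 123 ± 19.9 (adjusted p = 0.0107 and 0.00427). The rise of Pdk1 did not pass without torpor libraries 4 and 5, and neither rise passed with the marker covariate, under which Pdk4 and Slc19a3 still did. Of the 22 genes of pyruvate dehydrogenase and the citric acid cycle 2 rose (9.09%, near the 9.73% of all genes) and none fell. Their median was 0.20. Sdha, of succinate dehydrogenase, rose by 0.36 ± 0.10 (adjusted p = 0.0150). Without torpor libraries 4 and 5 the same 22 genes gave 12 rises (54.5%, against 7.09% of all genes), and with the marker covariate 2. The rises numbered 5 without torpor library 4 alone and 4 without torpor library 5 alone.

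A carrier of lactate and ketone bodies rose, and the enzymes of ketone use named here did not pass. Slc16a1, which carries lactate and ketone bodies across membranes, stood at 74.6, 84.4, 65.8, 125 and 61.8 in active libraries 1 to 5 and at 137, 155, 144, 148 and 171 in torpor. Active library 4 was the highest of its state and still below every torpor library, and the gene rose by 0.91 ± 0.15 (adjusted p = 6.71e-04). IBA was at 159. Bdh1 and Oxct1, enzymes of ketone use, stood at 86.8 ± 12.4 and 194 ± 16.5 in torpor and at 89.5 ± 10.2 and 196 ± 28.9 in active (differences −0.05 ± 0.13 and −0.00 ± 0.11, adjusted p = 0.819 and 0.985).

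Among 26 genes of fatty acid oxidation and ketone use 6 rose (23.1%, against 9.73% of all genes) and none fell. Their median was 0.07. Acsl1, which activates fatty acids, rose by 0.51 ± 0.12, and Etfb and Hadh, of the beta-oxidation spiral and its electron transfer, by 0.37 ± 0.09 and 0.37 ± 0.09 (adjusted p = 0.00656, 0.00753 and 0.0113). Cpt1a, the gate for long-chain fatty acids, stood at 50.1 ± 10.1 in torpor and 44.5 ± 7.69 in active (adjusted p = 0.442). The 6 rises became 3 without torpor library 3 or active library 3, were 6 without torpor libraries 4 and 5, and became 1 with the marker covariate. Of lipid-handling genes, Hilpda, an inhibitor of lipolysis on lipid droplets, fell by 0.67 ± 0.11 and Angptl4, a secreted inhibitor of lipoprotein lipase, by 0.71 ± 0.19 (adjusted p = 8.48e-04 and 0.0132). Lipe, hormone-sensitive lipase, rose by 0.81 ± 0.23 (adjusted p = 0.0217), a call that ended without torpor library 4 or 5 (0.0573 and 0.0606).

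Transcripts of both ferritin chains rose, while that of the iron exporter fell. Of 10 genes of metal binding and iron storage 2 rose (20%) and 3 fell (30%), against 9.73% and 9.74% of all genes. Their median was −0.07. The rises numbered 1 without torpor library 1 or active library 2 or 5. Rises and falls numbered 2 and 2 without torpor libraries 4 and 5, 1 and 2 with the marker covariate, and 1 and 3 under library-size scaling. Fth1, the heavy chain of ferritin, stood at 908, 751, 939, 898 and 853 in active libraries 1 to 5 and at 1921, 1624, 1309.6, 1359.7 and 1491 in torpor libraries 1 to 5. All torpor libraries were above all active ones, with torpor library 1 the highest, and the gene rose by 0.81 ± 0.11 (adjusted p = 1.93e-04). Ftl, the light chain, rose by 0.42 ± 0.13 (adjusted p = 0.0291), a call that ended without torpor library 1 or active library 2 or 5 (0.0564 to 0.0667) and under library-size scaling. Slc40a1, the iron exporter ferroportin, fell by 0.74 ± 0.17 to 27.6 ± 1.53 from 48.9 ± 16.8, and Ireb2, an iron sensor that represses ferritin translation, fell by 0.49 ± 0.09 (adjusted p = 0.00623 and 0.00210). The haem oxygenases Hmox1 and Hmox2 rose by 0.74 ± 0.18 and 0.46 ± 0.09 (adjusted p = 0.00992 and 0.00183). Nfe2l2, a regulator of antioxidant genes, fell by 0.39 ± 0.11 (adjusted p = 0.0166), and its target Srxn1 by 0.40 ± 0.11 (adjusted p = 0.0210), a call that ended without torpor library 5 or active library 3 (0.0505 and 0.0556). Antioxidant enzymes as a list gave 5 rises and 5 falls among 33 (15.2% each, against 9.73% and 9.74% of all genes). The falls numbered 3 without torpor library 5 or active library 2, 3 or 4. The list gave 8 rises and 2 falls without torpor libraries 4 and 5, and 1 of each with the marker covariate.

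Receptors of insulin signalling were lower. Insr fell by 0.59 ± 0.14 to 14.3 ± 1.499 from 22.2 ± 4.69 and Igf1r by 0.68 ± 0.14 to 127 ± 23.2 from 205 ± 46.5 (adjusted p = 0.00865 and 0.00395). Irs2, the adaptor behind both receptors, fell by 0.40 ± 0.11 (adjusted p = 0.0217), a call that ended without torpor library 1 or active library 3 (0.0508 and 0.0514). Foxo3, a transcription factor that insulin signalling keeps out of the nucleus, fell by 0.56 ± 0.11 (adjusted p = 0.00227). Txnip, an inhibitor of glucose uptake, rose by 0.78 ± 0.19 (adjusted p = 0.00872). Of 28 genes of FOXO and energy stress 4 rose and 4 fell (14.3% each, against 9.73% and 9.74% of all genes). The falls became 2 without active library 3. Rises and falls numbered 3 and 4 without torpor libraries 4 and 5, and 1 and 2 with the marker covariate. Under that covariate Insr, Foxo3 and Bnip3 passed and Igf1r, Irs2 and Txnip did not. Bnip3, a mitophagy receptor induced in hypoxia, rose by 0.64 ± 0.11 (adjusted p = 8.30e-04), and Vegfa, another hypoxia target, stood at 17.8 ± 6.398 in torpor and 37.7 ± 27.1 in active without passing (adjusted p = 0.140).

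In protein breakdown, Psmd2, a scaffold subunit of the proteasome cap, stood at 312, 365, 336, 298 and 351 in active libraries 1 to 5 and at 536, 574, 596, 499.6 and 451 in torpor, without overlap, and rose by 0.67 ± 0.11 (adjusted p = 5.99e-04). Psmd6 and Psmb1 rose by 0.53 ± 0.12 and 0.50 ± 0.11 (adjusted p = 0.00484 and 0.00513). These were the 3 of 37 proteasome subunits that passed (8.11%, near the 9.73% of all genes), although 32 of the 37 had a difference above 0 and the median was 0.14. Without torpor libraries 4 and 5, 11 rose (29.7%, against 7.09% of all genes), and with the marker covariate 5 (13.5%, against 2.46%). In the mean over the 37 subunits torpor libraries 2 and 3 were the highest and torpor library 5 the lowest of all 10 libraries.

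Klhl3, an adaptor that marks WNK kinases for degradation, fell by 0.78 ± 0.14, and Kctd12, which also associates with GABA-B receptors, by 0.60 ± 0.14 (adjusted p = 0.00138 and 0.00548). Fbxo7, an F-box adaptor, rose by 0.73 ± 0.12 (adjusted p = 6.20e-04). The KCTD family gave 3 rises (15%, against 9.73% of all genes) and 5 falls (25%, against 9.74%) among 20. The KLHL family gave 4 rises (11.8%, near 9.73%) and 6 falls (17.6%, against 9.74%) among 34. The KCTD rises numbered 0 without torpor library 3 or active library 4, 1 without active library 2 and 5 without torpor library 1. Leaving out torpor libraries 4 and 5, KCTD genes gave 1 rise and 4 falls and KLHL genes 7 falls and no rise, and with the marker covariate 3 and 2 falls and no rise. F-box proteins gave 7 rises (12.1%, near the 9.73% of all genes) and 2 falls (3.45%, against 9.74%) among 58. The counts were 4 and 2 without torpor libraries 4 and 5 and 2 and 1 with the covariate. Their falls numbered 1 without any single library but torpor library 2.

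In translation, 6 of 47 initiation factors rose (12.8%, near the 9.73% of all genes) and 1 fell (2.13%, against 9.74%). Eif3f rose by 0.54 ± 0.11 and Eif5a by 1.06 ± 0.29, and Eif1b fell by 0.42 ± 0.11 (adjusted p = 0.00281, 0.0216 and 0.0136). The call of Eif5a ended without torpor library 3 or 4 (0.0512 and 0.0538). The rises became 2 without torpor library 3 and 3 without torpor library 4 or active library 4. They became 4 (8.51%) either without torpor libraries 4 and 5 or with the marker covariate, against 7.09% and 2.46% of all genes. Farsa, a subunit of phenylalanyl-tRNA synthetase, rose by 0.82 ± 0.13 to 168 ± 26.2 from 94.8 ± 13.1 (adjusted p = 6.65e-04). It was 1 of 3 rises among 20 cytosolic synthetases (15%, against 9.73% of all genes). That count was also 3 without torpor libraries 4 and 5 and with the covariate. None of 9 elongation factors passed. Mitochondrial ribosomal proteins gave 12 rises (15.6%, against 9.73% of all genes) and 2 falls (2.60%, against 9.74%) among 77 with a median of 0.04. Under library-size scaling they gave 7 rises and 5 falls, and the median was −0.04. They gave 10 rises and no fall without torpor libraries 4 and 5, 3 rises with the covariate, and 5 falls without torpor library 2. Ribosome biogenesis gave 3 rises and 5 falls among 42 (7.14% and 11.9%, near the 9.73% and 9.74% of all genes). It gave 2 and 1 without torpor libraries 4 and 5 and none with the covariate. Its falls numbered 1 without torpor library 5 or active library 3, and its rises 1 without torpor library 4. Mrps25, Mrpl12 and Mrpl11 rose by 0.97 ± 0.15, 0.68 ± 0.13 and 0.66 ± 0.12 (adjusted p = 5.74e-04, 0.00227 and 0.00151).

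Among genes of excitability, calcium-binding proteins and calmodulin kinases gave many rises. Of 25 tested 9 rose (36.0%, against 9.73% of all genes) and none fell, with a median of 0.26. Calb1, the calcium buffer calbindin, stood at 235, 241, 279.7, 271 and 269.8 in active libraries 1 to 5 and at 522, 443, 363, 370.3 and 469 in torpor, with no overlap, and rose by 0.73 ± 0.10 (adjusted p = 2.58e-04). Beside Hpca, Hpcal1, a related sensor, rose by 0.95 ± 0.20, and Camk2a, a kinase of synaptic plasticity, by 0.73 ± 0.16, with 1 or more torpor libraries inside the active range for both (adjusted p = 0.00360 and 0.00487). The 9 rises became 5 without torpor library 5 or active library 4. They became 4 (16.0%, against 7.09% of all genes, beside 1 fall) without torpor libraries 4 and 5. With the marker covariate 1 was left (4.00%, near the 2.46% of all genes). Calb1 passed in each of these settings.

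Of 70 potassium channel genes 5 rose (7.14%) and 2 fell (2.86%), both below the 9.73% and 9.74% of all genes. They gave 8 rises and 5 falls without torpor library 2 and 3 rises without torpor library 4 or active library 4. Leaving out torpor libraries 4 and 5 gave 3 of each (4.29%, against 7.09% and 7.07% of all genes). The marker covariate gave 3 falls (4.29%, against 2.43%) and no rise. Kcns1, a modulatory subunit of voltage-gated channels, rose by 0.73 ± 0.16 (adjusted p = 0.00397). Kcnj2, an inward rectifier that helps set the resting potential, stood at 11.6, 9.25, 11.5, 10.7 and 13.96 in active libraries 1 to 5 and at 9.26, 3.78, 3.89, 2.95 and 2.67 in torpor, where torpor library 1 lay at the active level and the other 4 far below, and fell by 1.27 ± 0.22 (adjusted p = 0.00123). In IBA it stood at 11.8, and torpor lay below IBA by 1.31 (adjusted p = 0.00466).

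Of 24 glutamate receptor genes 4 rose (16.7%, against 9.73% of all genes) and none fell. Among the rises were Gria4 by 0.40 ± 0.10 and Grin1 by 0.64 ± 0.21 (adjusted p = 0.00863 and 0.0373). The call of Grin1 ended without torpor library 3, 4 or 5 or active library 2, 3, 4 or 5 (0.0526 to 0.0935). The 4 rises became 1 or 2 without torpor library 3, 4 or 5 or active library 3, 4 or 5. They became 1 (4.17%) either without torpor libraries 4 and 5 or with the marker covariate, against 7.09% and 2.46% of all genes. Gabra5, a subunit of extrasynaptic GABA receptors, rose by 0.40 ± 0.10 (adjusted p = 0.0143). Among 38 ion pumps and exchangers 7 rose (18.4%) and 1 fell (2.63%), against 9.73% and 9.74% of all genes. The counts were 6 (15.8%) and 1 without torpor libraries 4 and 5 and 2 (5.26%) and 1 with the covariate. Of all genes 7.09% and 2.46% rose in those settings. Slc4a10, a bicarbonate transporter of neurons, rose by 0.38 ± 0.10, and Atp2a2, the calcium pump of the endoplasmic reticulum, fell by 0.43 ± 0.07 to 139.7 ± 10.4 from 188 ± 5.07 (adjusted p = 0.0113 and 0.00105). Of 21 tubulins and microtubule-associated proteins 6 rose (28.6%, against 9.73% of all genes) and none fell, although their median was 0.01. They gave 5 rises without torpor libraries 4 and 5 and 2 with the covariate.

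Single receptors for histamine and serotonin moved in opposite directions. Hrh1, the histamine receptor through which magnocellular neurons are excited, fell by 0.80 ± 0.17 to 12.8 ± 2.71 from 22.7 ± 2.59, and Htr2c rose by 0.61 ± 0.12 to 51.8 ± 6.59 from 33.9 ± 6.21 (adjusted p = 0.00416 and 0.00322). Neither passed with the marker covariate (0.459 and 0.207). Adenosine receptors were examined because agonists of the receptor encoded by Adora1 can bring on torpor in arctic ground squirrels in season. Adora1 itself lay between 8.45 and 50.2 in torpor and between 7.73 and 23.5 in active and did not pass (adjusted p = 0.207). Adora2b stood at 8.36, 7.203, 4.298, 7.91 and 7.26 in active libraries 1 to 5 and at 13.8, 11.2, 19.6, 24.8 and 30.9 in torpor, where every library was above every active one, and rose by 1.34 ± 0.24 (adjusted p = 0.00154). It was the only one of 9 adenosine genes to pass (11.1%, near the 9.73% of all genes), and it did not with the marker covariate. Th, the first enzyme of dopamine synthesis, rose by 1.20 ± 0.29 at a low level, to 5.77 ± 3.27 from 1.76 ± 0.669 (adjusted p = 0.00867), and did not pass without torpor libraries 4 and 5. Rgs2, which shortens signalling by G protein-coupled receptors, fell by 0.84 ± 0.16 (adjusted p = 0.00239).

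The CREB family, which links cyclic AMP and activity to transcription, gave 6 falls and no rise among 18 (33.3%, against 9.74% of all genes). Crem stood at 53.1, 37.1, 25.4, 51.5 and 23.7 in active libraries 1 to 5 and at 17.6, 18.8, 14.6, 16.7 and 18.9 in torpor. The active libraries were spread, with 3 and 5 the lowest, and the torpor libraries were close together and below all of them (fall of 1.03 ± 0.20, adjusted p = 0.00207). Atf1 fell by 0.53 ± 0.12, Creb1 by 0.43 ± 0.12 and Sik2, a kinase that holds CREB coactivators in the cytoplasm, by 0.49 ± 0.11 (adjusted p = 0.00700, 0.0164 and 0.00537). Without torpor libraries 4 and 5 the list gave 5 falls and 1 rise and Creb1 did not pass, and with the marker covariate 1 fall. Crem stood at 17.2 in IBA.

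Some genes that respond to glucocorticoids fell, and none on the list rose. Fkbp5, a chaperone of the glucocorticoid receptor and one of its best-known targets, stood at 45.02, 44.3, 35.99, 61.1 and 53.2 in active libraries 1 to 5 and at 31.7, 21.02, 19.3, 14.1 and 32.2 in torpor, without overlap, and fell by 1.03 ± 0.20 (adjusted p = 0.00232). Tsc22d3, another target, fell by 0.56 ± 0.15 (adjusted p = 0.0162), with some torpor libraries inside the active range. Sgk1 stood at 108 ± 24.97 in torpor and 83.7 ± 29.6 in active and did not pass (adjusted p = 0.221). The list of steroid receptors and glucocorticoid-responsive genes gave 4 falls and no rise among 22 (18.2%, against 9.74% of all genes). It gave 3 falls without torpor libraries 4 and 5 and 3 with the marker covariate. Of 14 thyroid hormone genes 1 rose and 1 fell (7.14% each, below the 9.73% and 9.74% of all genes), with a median of 0.08. Thrb, a receptor, fell by 0.79 ± 0.19 (adjusted p = 0.00715). Dio2, the activating deiodinase, stood at 4.78 ± 2.399 in torpor and 2.696 ± 1.66 in active (adjusted p = 0.215).

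The TGF-beta and BMP pathway gave falls among its ligands, receptors and targets. Of 36 tested 13 fell (36.1%, against 9.74% of all genes) and 2 rose, with a median of −0.31. Tgfb3, a ligand, stood at 52.97, 51.2, 49.8, 54.3 and 45.2 in active libraries 1 to 5 and at 24.9, 9.68, 22.99, 31.9 and 35.8 in torpor, where library 2 was far below the other 4, and fell by 1.10 ± 0.27 (adjusted p = 0.0111). Bmpr1a, a BMP receptor, fell by 0.76 ± 0.17 to 14.7 ± 2.36 from 25.6 ± 3.89, and Bambi, a decoy receptor, by 0.71 ± 0.18 (adjusted p = 0.00513 and 0.0108). Id3, a direct target of BMP signals, fell by 0.77 ± 0.21 to 119 ± 33.2 from 204 ± 55.3, with overlap between the states (adjusted p = 0.0205). The falls became 7 without torpor library 3 and 8 without active library 4. They became 7 (19.4%, against 7.07% of all genes) without torpor libraries 4 and 5, and 2 (5.56%, against 2.43%) with the marker covariate. Active library 4 had the highest mean level of this list among the active libraries.

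Markers of vessel walls moved in the same direction as this pathway, whose members vessels also express. Of 10 mural cell markers 4 fell (40%, against 9.74% of all genes) and none rose. Their median was −0.36, and mean log2 levels ran from 4.19 to 4.71 in active and from 3.33 to 4.32 in torpor. The 4 falls became 2 without active library 1, 2 or 4, 3 without torpor libraries 4 and 5, and 1 with the marker covariate. Of 13 endothelial markers 3 fell (23.1%) and 1 rose (7.69%), with 3 and 1 without torpor libraries 4 and 5 and 1 fall with the covariate. None of 9 meningeal and fibroblast markers passed, although 8 lay below 0. Their mean log2 level was 5.95 in active library 4 and 3.32 to 4.14 in the other active libraries, against 2.68 to 4.43 in torpor. Active library 4 was the highest of its state for mural and endothelial markers, at 4.71 and 5.81, and the lowest for neuron markers, at 7.95. The part of vessel wall and meningeal cells in the lower pathway genes was not tested.

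In the Notch pathway 5 of 23 genes fell (21.7%, against 9.74% of all genes) and 2 rose (8.70%, against 9.73%), and its targets moved both ways. Hes1 rose by 0.93 ± 0.19 to 5.66 ± 1.92 from 2.401 ± 0.387, Hey1 fell by 0.38 ± 0.11, and Nrarp, a feedback inhibitor, fell by 0.61 ± 0.17 (adjusted p = 0.00284, 0.0202 and 0.0209). Maml3, a coactivator of Notch, fell by 0.71 ± 0.14 (adjusted p = 0.00305). The call of Hey1 ended without active library 4 (0.0509), and the 5 falls became 3 without torpor library 3 or 4 or active library 1, 3, 4 or 5. The counts were 3 falls and 1 rise without torpor libraries 4 and 5, and 1 fall and no rise with the marker covariate.

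**Figure D3:**
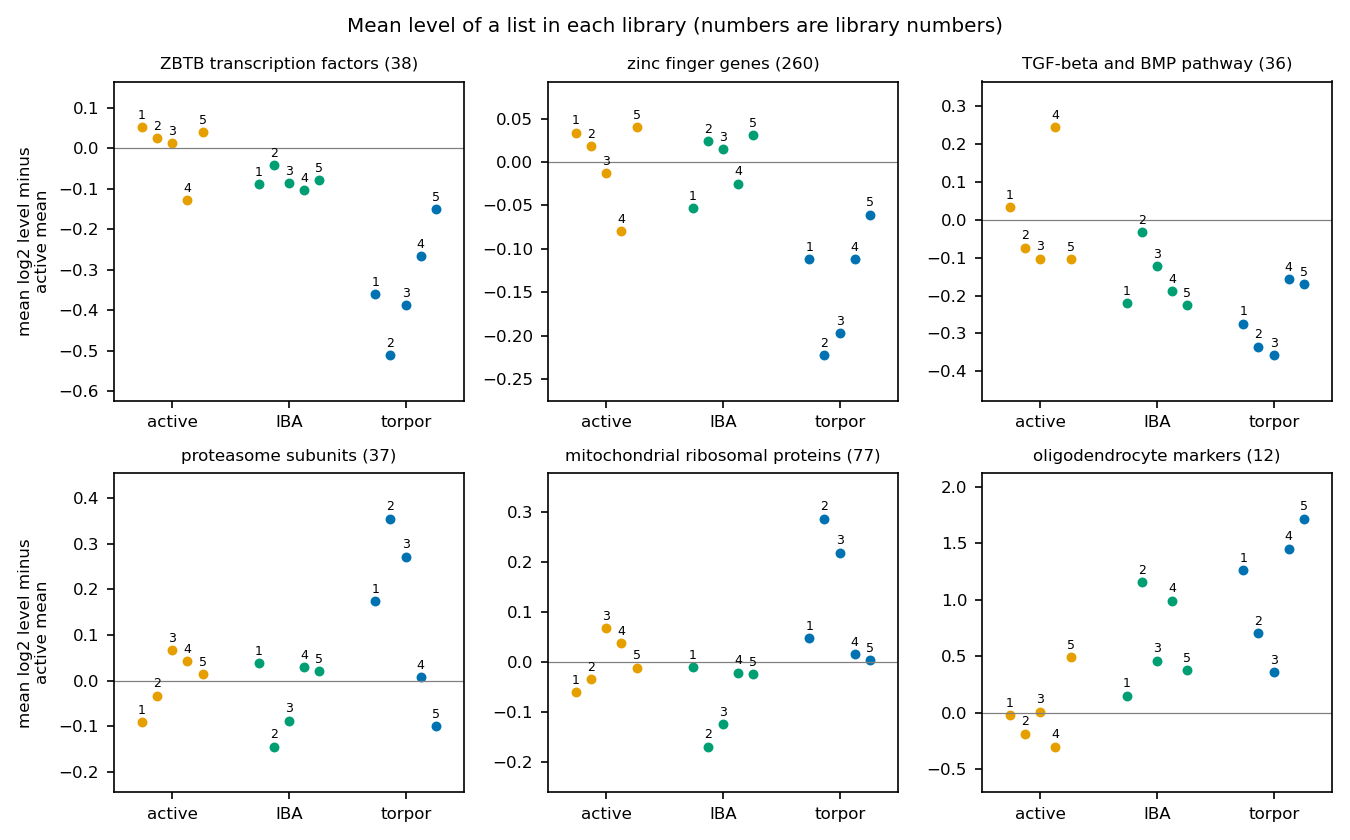
Mean log2(normalised CPM + 1) over the tested members of 6 lists in each library, minus the mean of the 5 active libraries (vertical axes; scales differ between panels), with library numbers beside the points. ZBTB and zinc finger genes are lowest in torpor libraries 2 and 3, proteasome and mitochondrial ribosomal genes are highest in the same 2 libraries, and oligodendrocyte markers are highest in torpor libraries 4 and 5.

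Lipid genes of myelin rose with the oligodendrocyte markers. Of 19 genes of fatty acid and myelin lipid synthesis 7 rose (36.8%, against 9.73% of all genes) and none fell. Their median was 0.35. Without torpor libraries 4 and 5, 3 rose, and none passed with the marker covariate. Fa2h, which makes the hydroxylated fatty acids of myelin, rose by 1.23 ± 0.32, and Gal3st1, which makes sulfatide, by 0.82 ± 0.18 (adjusted p = 0.0147 and 0.00446). Adamts4, a protease made by oligodendrocytes, rose by 1.31 ± 0.34 (adjusted p = 0.0150). Fa2h and Adamts4 did not pass without torpor libraries 4 and 5. Cholesterol synthesis was less uniform: 4 of 21 genes rose (19.0%) and 1 fell (4.76%), against 9.73% and 9.74% of all genes, with a median of −0.04. It gave 8 rises and 2 falls without torpor library 2, 2 and 1 without torpor libraries 4 and 5, and 1 of each with the covariate. Sqle, squalene epoxidase, rose by 0.75 ± 0.12 to 52.1 ± 3.25 from 30.98 ± 5.73 (adjusted p = 6.36e-04) and passed with the covariate as well.

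Some lists gave low counts that moved with single libraries. Of 70 extracellular matrix genes 3 rose (4.29%) and 4 fell (5.71%), both below the 9.73% and 9.74% of all genes, but 7 fell without torpor library 5. Without torpor libraries 4 and 5, 10 fell (14.3%, against 7.07% of all genes) and 1 rose, and none passed with the marker covariate. Of 53 semaphorins, ephrins and guidance receptors 3 rose (5.66%) and 2 fell (3.77%), whereas 10 rose and none fell without torpor library 2. The falls numbered 0 or 1 without any single library but torpor library 4. For these genes leaving out torpor libraries 4 and 5 gave 2 and 3, and none passed with the covariate. Of 39 Wnt pathway genes 1 rose (2.56%) and 2 fell (5.13%), with 2 rises without torpor library 1 or active library 1. Their counts were 1 and 3 without torpor libraries 4 and 5, and 1 rise with the covariate. Of 25 inflammatory and NF-kB genes 1 fell (4.00%) and none rose, and the falls numbered 1 in both of those settings. They numbered 2 without torpor library 5 or active library 5 and 3 without active library 3, with 1 rise without torpor library 2. In simulated data the test recovered small differences poorly. On 15346 genes limma called 23.9% of genes changed 1.5-fold, 67.2% of those changed 2-fold and 84.8% of those changed 3-fold. Only 67, 67 and 66 genes were changed at those sizes, against 3018 genes called in the real data. Benjamini-Hochberg adjustment asks for smaller p-values where fewer genes change, so recovery in the real data may differ. A low count does not show that a function was unaltered.

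**Figure D4:**
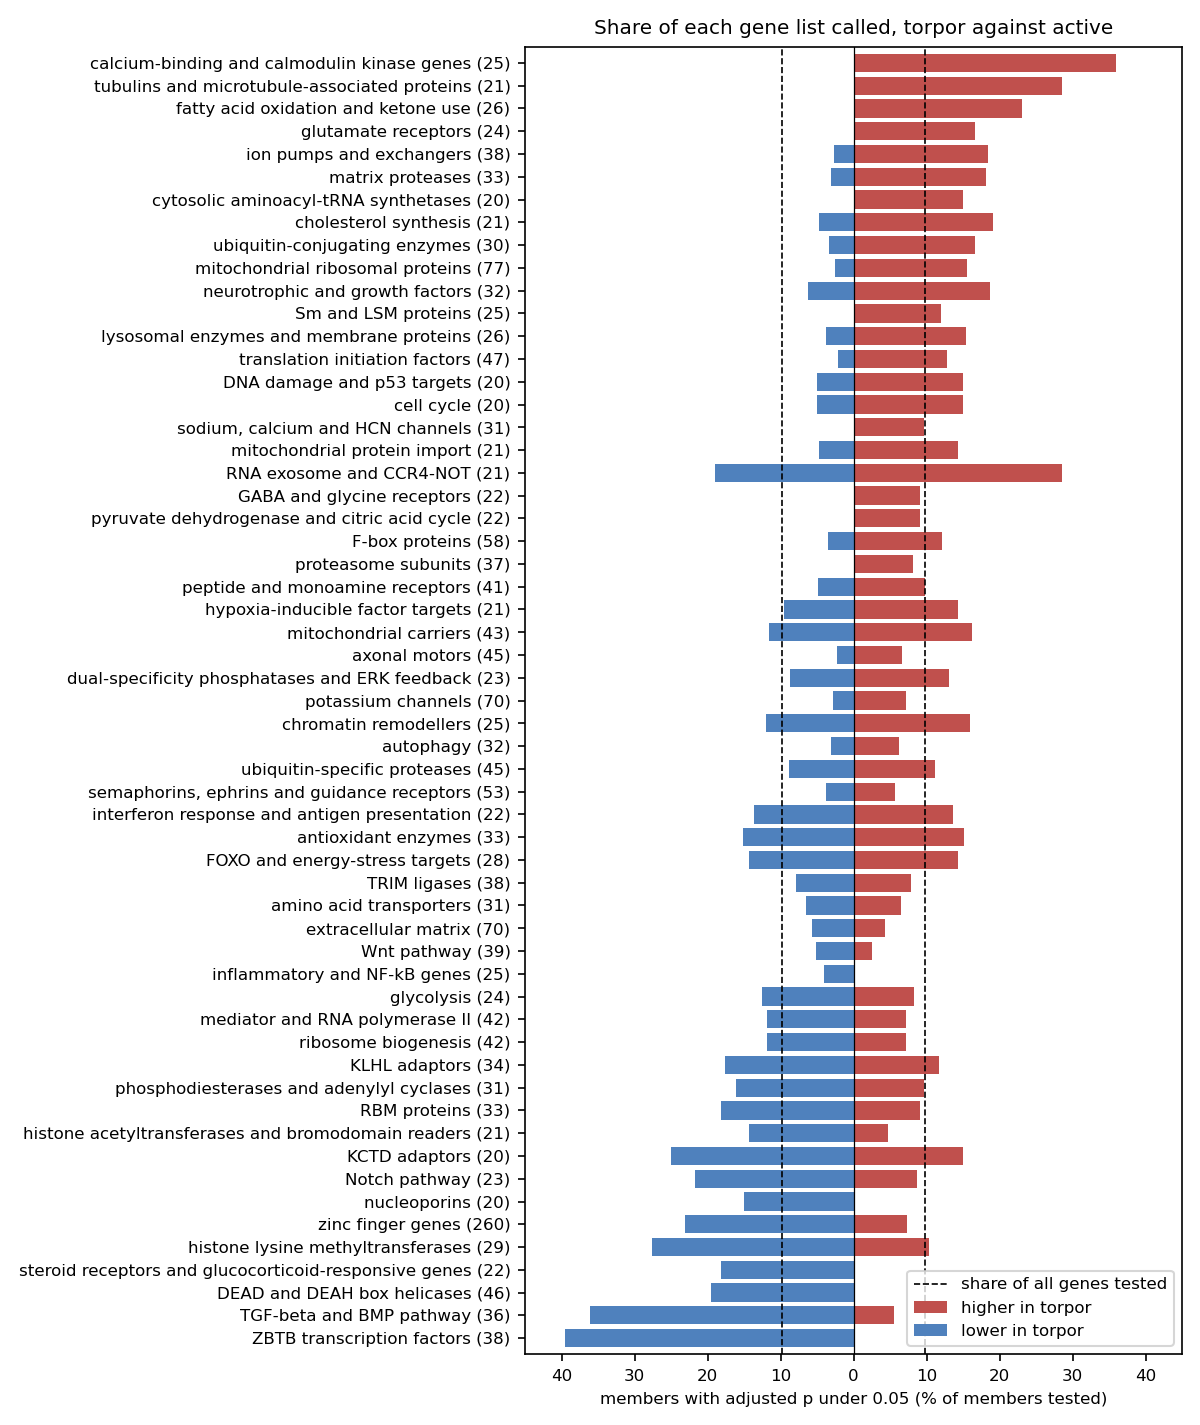
Share of the tested members of each gene list (horizontal axis, %) that were higher (red, right) or lower (blue, left) in torpor at an adjusted p under 0.05, for lists with at least 20 tested members, whose numbers are in brackets; dashed lines mark the 9.73% and 9.74% of all 15501 genes. Calcium-binding genes have the highest share of rises and ZBTB genes the highest share of falls among the lists drawn.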

How the data were processed

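RNA of the supraoptic nucleus was sequenced in 5 active, 5 IBA and 5 torpor libraries. The submitters' processing notes name R 4.2.1 with edgeR 3.38.4, Subread 2.0.1 with featureCounts, the STAR aligner (2.7.7a) and Trimmomatic 0.39. Which build, annotation and strand setting they used is not given in the sources used here; genes that overlap a neighbour are uncertain. The deposited per-library values are a signal, normalised CPM, and 100% of them lay within 0.1 read of a whole number of recovered reads. Per the file headers the authors' table also holds log2 fold changes, an F score and its p-value, which were not used here.

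Torpor was compared with active by limma 3.58.1 in R 4.3.3 on log2(value + 1), with its trend and robust options, keeping the 15501 genes at 1 or more in 5 or more libraries. All 15 libraries entered the fit, with no covariate, two-sided tests, Benjamini-Hochberg adjustment and a threshold of 0.05. The p-values measure the spread between these libraries. Lists are described by counts and medians beside those of all genes, with no test of a list. Members, lists and settings were chosen with earlier results of these data known. The naming rule takes the genes ranked 11 to 25 by rise or fall without overlap and with a mean log2 level of at least 2, the 10 smallest p in each direction, up to 4 members per list and direction, and marked members; it takes 465 genes, of which 155 are named. That selection was made after values were seen, so the share of named calls that hold under other settings is no measure of stability. On simulated data the recovery was as given in the report; the lowest recovery accepted for 3-fold changes was lowered after the first run, with no change to the procedure. Alternatives used edgeR 4.0.16 and DESeq2 1.42.0 on the recovered reads.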

Additional observations from a re-analysis of the deposited data

Results flagged for a closer look

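For 20 of the 310 groups of 5 libraries examined (155 named genes in 2 states, 6.45%) 1 library stood far from the other 4, with a gap to its neighbour above 0.71 of the whole range; chance flags about 1 in 20 groups. The library stood above the other 4 for Ldb3 in active library 2 at 4.74 normalised CPM against 2.67 to 3.17, Nabp1 in torpor library 2 at 13.5 normalised CPM against 10.1 to 11.1 and Clk4 in active library 4 at 122 normalised CPM against 85.4 to 95.5. So it did for Sdha in torpor library 3 at 1139.8 normalised CPM against 881 to 929, Vegfa in active library 5 at 84.5 normalised CPM against 17.2 to 36.7 and Igf1r in active library 2 at 288 normalised CPM against 179 to 189.9. The same held for Foxo3 in torpor library 1 at 23.3 normalised CPM against 17.5 to 19.2, Sgk1 in torpor library 1 at 152 normalised CPM against 86.6 to 104 and Znf366 in active library 5 at 22.2 normalised CPM against 13.8 to 16.1. Further high values were Znf331 in torpor library 4 at 133 normalised CPM against 86.0 to 96.9, Uhrf1 in torpor library 1 at 5.68 normalised CPM against 2.81 to 3.51 and Kcnj2 in torpor library 1 at 9.26 normalised CPM against 2.67 to 3.89. Also high stood Ftl in torpor library 1 at 1433 normalised CPM against 914 to 1004. It stood below the other 4 for Tomm40 in active library 4 at 4.59 normalised CPM against 8.63 to 9.31, Dnase1l2 in active library 4 at 3.26 normalised CPM against 5.20 to 5.96 and Mrps25 in active library 3 at 25.6 normalised CPM against 32.5 to 34.7. Low values were also Fbxo7 in active library 4 at 43.9 normalised CPM against 50.0 to 52.2, Gria4 in torpor library 4 at 73.1 normalised CPM against 93.8 to 98.8 and Adora2b in active library 3 at 4.30 normalised CPM against 7.20 to 8.36. The last low values were Nrarp in active library 5 at 2.69 normalised CPM against 4.25 to 4.41.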

How the results depend on the processing

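The count of genes called was 3018. It ranged from 2278 to 3315 with 1 library left out (higher 1116 to 1726, lower 1158 to 1589), and all genes shared with the 3018 kept their direction in every setting. It was 2992 and 3023 with pseudocounts of 0.1 and 5, 3061 without a filter, 2735 with a filter at 5, 2294 with only the 10 libraries compared, 3010 with median-of-ratios scaling, 3154 in edgeR (3113 with median-of-ratios factors), 3713 in DESeq2, 2690 without torpor library 2 and active library 4 and 2195 without torpor libraries 4 and 5. Library-size scaling gave 2273 genes lower. The oligodendrocyte marker level as a covariate gave 757, or 381 higher and 376 lower; the marker level and the state move together, so this fit has less to separate them by, and the cause of the loss was not tested. With a replicate block 2285 passed (1150 higher, 1135 lower). The samples share only a number: deviations of same-numbered torpor and active libraries correlated at −0.094, −0.124, 0.171, −0.317 and −0.0335, and only number 3 matched best with its own. Of 145 named calls the covariate ended 83, leaving out torpor libraries 4 and 5 ended 16, leaving out torpor library 2 and active library 4 ended 12, the replicate block ended 7, and leaving out 1 library ended 14 in at least 1 case, each of them named beside its gene; no named gene changed direction. Besides those given in the report, leaving out torpor library 2 and active library 4 ended the calls of Abi3bp, Angptl4, Nfe2l2, Id3 and Nrarp. Fitting only the 10 libraries compared, without IBA, ended 5 named calls, those of Mettl14, Grin1, Tet3, Hk2 and Ezh2. Depth limits low genes, and differences under 2-fold were often missed in simulated data, which held fewer changed genes than were called here.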
